A study of Drosophila melanogaster with 3 samples.

Results

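The oxidative phosphorylation genes of the fly wing were described across 3 arrays of late pupal tissue. Members were the probe sets with a single gene symbol that named a subunit of complexes I to V: symbols beginning with ND-, SdhA to SdhD, UQCR, COX and a digit, or ATPsyn, and the genes RFeSP, Cyt-c1, cype, levy, ox and sun. A gene with several probe sets took the one with the highest mean log2 signal. This gave 78 genes among 11981 named genes, of which 57 were subunits and 21 were paralogs, that is, genes whose symbol is another subunit's name followed by L, or by L and a digit. ND-MNLL also ends in L, but that is the subunit's own name. By complex, 27 subunits belonged to complex I, 3 to complex II, 7 to complex III, 9 to complex IV and 11 to complex V. The rule matched 98 symbols of the RefSeq gene table, and the other 20, among them both cytochrome c genes Cyt-c-p and Cyt-c-d, the flavoprotein gene SdhA and the core genes UQCR-C1 and UQCR-C2, were not analysed here.

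All samples came from wings of Oregon R pupae, a wild-type laboratory strain with no transgene, kept at 25 C and collected at about 80 h after puparium formation. The wings were dissected out of the pupal case, RNA came from batches of 40 flies, and each of 3 biological replicates was hybridised to 1 Affymetrix array from 5 ug of total RNA. The pupae were staged by eye from wing pigmentation, the flies of a batch were pooled, and whole wings hold veins, nerves, tracheae and blood cells beside the epithelium, so the values are averages over these cells. No other stage, tissue or treatment was measured, and the question was therefore which of these genes gave a signal above that of genes of other organs.

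Oxidative phosphorylation takes place in the inner mitochondrial membrane. Complex I takes electrons from NADH and complex II from succinate, complex III passes them to cytochrome c, and complex IV hands them to oxygen, while complexes I, III and IV pump protons. Complex V, the ATP synthase, uses the return flow of protons to make ATP. Most subunits are encoded in the nucleus, and the fly genome holds additional copies of many of them, often transcribed mainly in the testis in adult flies. The mitochondrially encoded subunits, 13 list entries, were not analysed here.

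A reference level was set on each array as the 95th percentile of 87 genes whose products belong to the antenna, the ovary or the male accessory gland. It lay at a signal of 89.4, 104.9 and 90.7 on replicates 1, 2 and 3. Each gene's log2 signal minus this level was tested for a mean above 0 with limma, and a gene with a Benjamini-Hochberg adjusted p below 0.05 over all named genes is called above the reference level. Across all named genes, 5583 of 11981 (46.6%) were above it, 5739 had an unadjusted p below 0.05, and 1574 (13.1%) exceeded it by at least 4 on the log2 scale, which is 16-fold. Signals of different probe sets depend on their probes as well as on the transcript, so they are no order of transcript abundance between genes. In whole tissue, fewer cells of a type and less RNA per cell cannot be told apart. Markers of the labelled tissue were present, since all 8 wing epithelium genes were above the level, among them the wing selector gene vg (9.61 ± 0.14 log2 signal, SD, n = 3) and nub (12.96 ± 0.05).

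Nearly every measured subunit was above the reference level, and nearly every paralog was not. Of the 57 subunits, 55 were above it, with a median difference of 5.15 on the log2 scale over all 57, against a median of 0.25 over all named genes. Of these subunits 51 exceeded the level by at least 16-fold, where 13.1% of all named genes did. Each later count at 16-fold stands beside that share. Of the 21 paralogs 1 was above it, and their median difference was -1.84. Together, 56 of the 78 members (71.8%) were above the level, where 46.6% of all named genes were. The same 56 members, and no other, had an unadjusted p below 0.05.

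**Figure D1:**
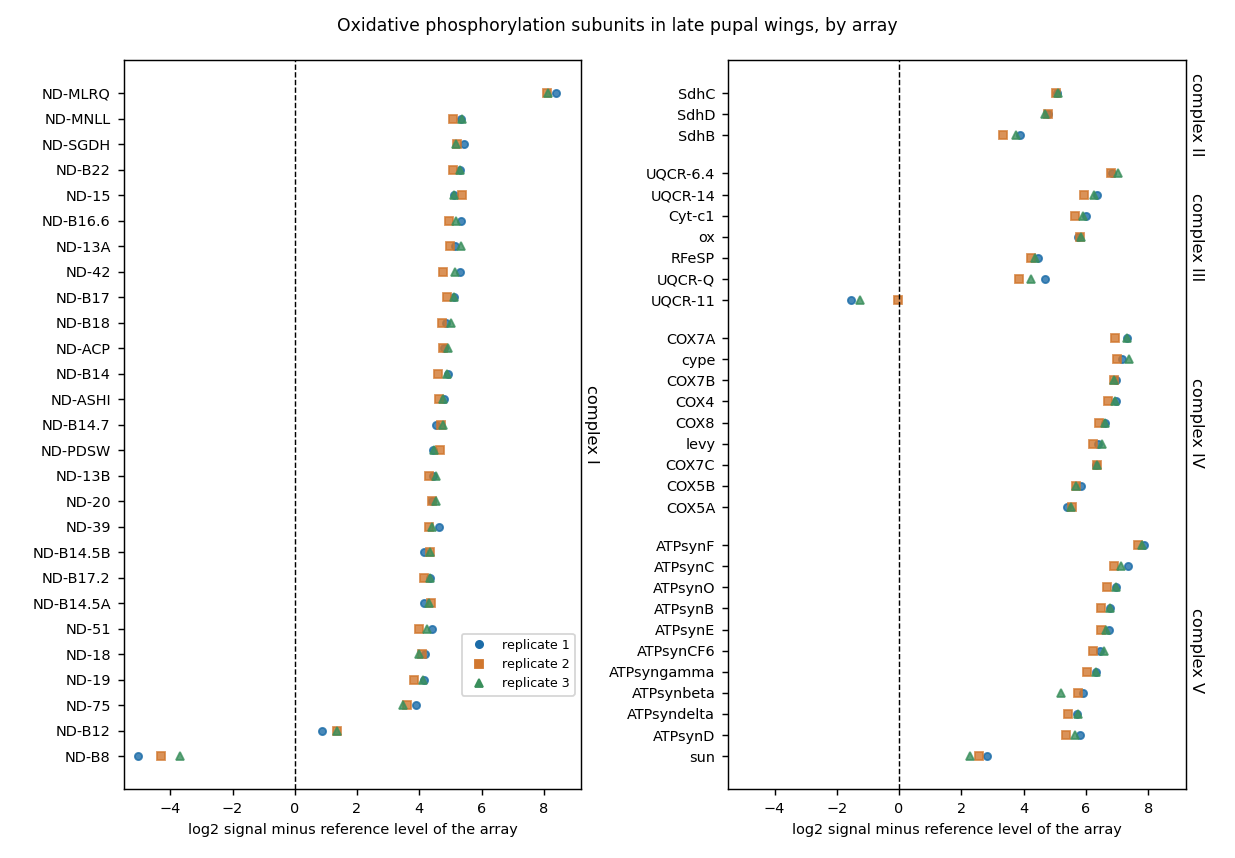
Difference of the log2 signal from that array's reference level for the 57 subunits, 1 row a gene and 1 point for each of the 3 replicates, grouped by complex; the dashed line is the reference level. All points of 55 subunits lie right of the line, and ND-B8 and UQCR-11 lie left of it on every array.

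Complex I carried 26 of its 27 measured subunits above the reference level, 24 of them by at least 16-fold, with a median difference of 4.66. The complex has an arm in the matrix, where NADH is oxidised, and an arm in the membrane. Of the matrix arm 10 of 11 subunits were above the level (median difference 4.28), and of the membrane arm 14 of 14 (median difference 4.95). ND-51, whose product binds NADH and the flavin that first accepts its electrons, had signals of 1896, 1675 and 1742. ND-75, an iron-sulphur subunit further along the electron path, had 1326, 1264 and 1000. ND-20, which carries the last iron-sulphur cluster before ubiquinone, had 1901, 2210 and 2093. The 3 core subunits exceeded the reference level on every array, by a mean of 4.22, 3.65 and 4.44 on the log2 scale in this order.

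The complex I genes with the highest means were ND-MLRQ, ND-MNLL and ND-SGDH. ND-MLRQ had signals of 29771, 28648 and 25471 and a mean difference of 8.20 (adjusted p = 8.25e-05). In mammals its counterpart was reassigned from complex I to complex IV, and it is counted here by its symbol. ND-MNLL had 3637, 3581 and 3768 and ND-SGDH 3838, 3867 and 3276, and both encode small accessory subunits of the membrane arm. The mean difference was 5.27 for each of these.

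ND-B12 and ND-B8 stood apart from the other complex I genes. ND-B12, an accessory subunit of the membrane arm, had signals of 164, 265 and 234, a mean difference of 1.19 and an adjusted p of 0.00455. It was over the level on all arrays, but it was not called with the 99th percentile of the reference genes as the level (difference 0.69, adjusted p = 0.0698). ND-B8, an accessory subunit of the matrix arm, had signals of 2.72, 5.40 and 7.10. Its mean difference was -4.33, the lowest of all members, and 1.44% of named genes had a lower mean. A single probe set stood for each of these genes, and neither gene could be checked against another probe set.

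Complex II, succinate dehydrogenase, also belongs to the tricarboxylic acid cycle, and its 3 measured subunits were all above the reference level. SdhC, a membrane anchor, had signals of 3035, 3460 and 3085, a mean difference of 5.07. The other anchor gene, SdhD, had 2477, 2904 and 2307, a mean difference of 4.75. The iron-sulphur subunit gene SdhB had 1307, 1062 and 1208, a mean difference of 3.65 (adjusted p = 0.000193). The lowest of these signals was the 1062 of SdhB on replicate 2, where the level was 104.9.

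Of complex III, 6 of 7 subunits were above the reference level, each by at least 16-fold. Its redox subunits were among them: Cyt-c1, which carries the haem that reduces cytochrome c, had signals of 5738, 5250 and 5422 (mean difference 5.85). RFeSP, the Rieske iron-sulphur protein, had 1968, 1961 and 1889 (mean difference 4.35). The small subunits UQCR-6.4 and UQCR-14 had mean differences of 6.89 and 6.18, and ox, a small subunit of the complex, had 5.79. UQCR-Q had signals of 2297, 1519 and 1730, a mean difference of 4.26 (adjusted p = 0.000228).

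UQCR-11, read from a single probe set with no other to check it, was the subunit of complex III that was not above the level. Its signals were 30.9, 102 and 38.5, all under the reference level of their array, with a mean difference of -0.94. This gene corresponds to the hinge protein next to cytochrome c1 in mammals. Its replicate 2 value came close to the level of 104.9 on that array, and its SD was 0.91 on the log2 scale.

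All 9 measured subunits of complex IV were above the reference level by at least 16-fold, with differences between 5.49 and 7.19 and a median of 6.55. They are nuclear-encoded subunits that surround the catalytic core, which is encoded by mitochondrial DNA. COX7A had signals of 14359, 12760 and 14370. The cype gene, which encodes subunit VIc, had 12746, 13559 and 14965. COX7B had 11158, 12613 and 10930. These were the complex IV genes with the highest means, and their differences from the level were 7.19, 7.18 and 6.93. The other members of the complex were COX4 (6.86), COX8 (6.55), levy, which encodes subunit VIa (6.39), COX7C (6.34), COX5B, a zinc-binding subunit (5.74), and COX5A (5.49).

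Complex V was likewise above the level throughout, with 11 of 11 measured subunits, 10 of them by at least 16-fold, and a median difference of 6.42. The ATP synthase has a catalytic head with a central stalk, a peripheral stalk that holds the head still, and a membrane part with a ring of c subunits that turns as protons pass. Only measured genes that the rule matched were read, so none of these parts need be complete. All 4 measured members of the head and central stalk were above the level (median difference 5.62). So were all 4 measured members of the peripheral stalk (6.55) and all 3 of the membrane part (7.13). In the membrane part, ATPsynF had signals of 20781, 21522 and 20419 and a mean difference of 7.78. ATPsynC, the gene of the ring subunit, had 14506, 12592 and 12796 and a mean difference of 7.13. ATPsynO, which joins the peripheral stalk to the head, had 11056, 10755 and 11209 and a mean difference of 6.86.

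The measured genes of the head and central stalk included the lowest and the most variable member of the complex. ATPsynbeta, the gene of the catalytic subunit, had signals of 5292, 5692 and 3353, with replicate 3 below the others, and a mean difference of 5.62 (adjusted p = 0.000111). The epsilon subunit gene sun had 628, 620 and 441, a mean difference of 2.55 (adjusted p = 0.000449), also with its lowest value on replicate 3. Every value of both genes was over the reference level of its array.

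Of the 21 paralogs, 17 were over the reference level on no array, 3 on some arrays and 1 on all. By complex, 0 of 5 paralogs of complex I subunits, 0 of 3 of complex II, 0 of 2 of complex III, 0 of 7 of complex IV and 1 of 4 of complex V were above it by limma, and the same 1 gene had an unadjusted p below 0.05. The paralogs' names place them beside a partner, the gene whose name they extend, with levy standing for COX6A, cype for COX6C and sun for the epsilon subunit. The partner was measured for 18 paralogs, and these 18 pairs shared 15 partners, 14 of which were above the level. In 16 pairs the paralog was not above the level and the partner was. No fold is given between a paralog and its partner, since their signals come from different probe sets.

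**Figure D2:**
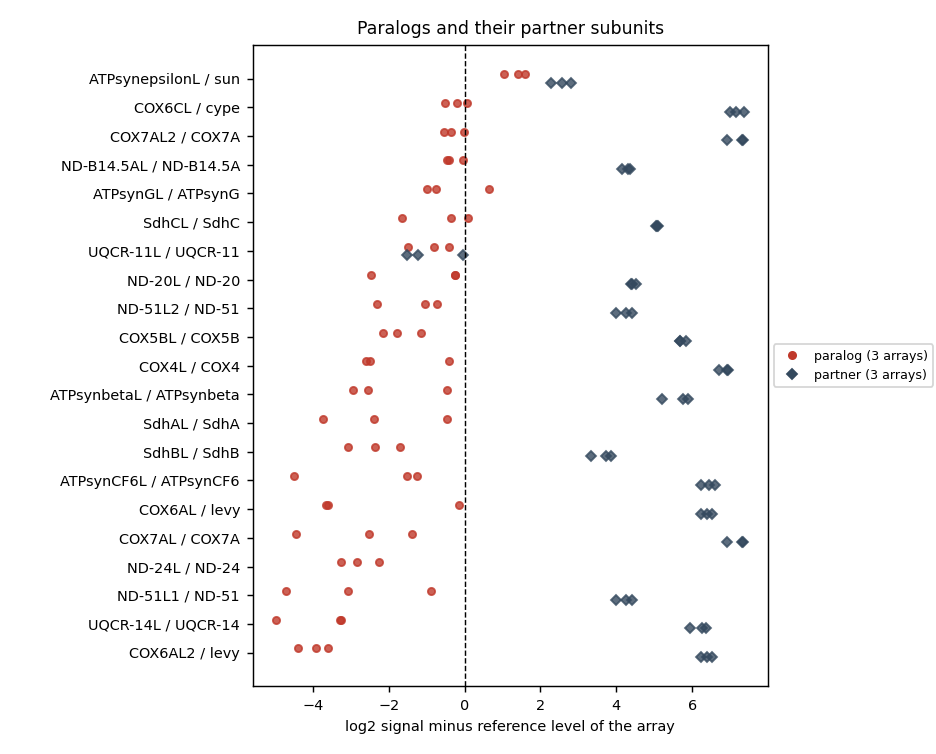
Difference of the log2 signal from that array's reference level for each of the 21 paralogs (circles, 3 replicates) and its partner (diamonds, 3 replicates), sorted by the paralog's mean; the dashed line is the reference level, and 3 rows have no partner value. ATPsynepsilonL is the paralog with all circles right of the line, and UQCR-11 is the partner with all diamonds left of it.

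ATPsynepsilonL was the paralog above the level. It had signals of 184, 317 and 243, a mean difference of 1.35 (adjusted p = 0.00317), and its partner sun was above the level too, at 2.55. All 3 arrays showed it over the level. In the UQCR-11L pair neither gene was above: UQCR-11L had signals of 31.6, 78.4 and 51.5 (mean difference -0.91) and UQCR-11 had the mean difference of -0.94 given before.

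The other paralogs of complex V subunits were under the level on average. ATPsynGL had signals of 140, 52.8 and 54.1, over the level on replicate 1 alone, with a mean difference of -0.36. ATPsynbetaL had 15.2, 75.9 and 11.8 (mean difference -1.99), and its partner ATPsynbeta, the catalytic subunit gene, was above at 5.62. ATPsynCF6L had 31.2, 44.2 and 4.03 (mean difference -2.42), and its partner ATPsynCF6, of the peripheral stalk, was above at 6.42. The values of these genes differed widely between arrays, with SDs of 0.80, 1.46 and 1.87 on the log2 scale in this order.

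None of the 7 paralogs of complex IV subunits was above the level, and all of their partners were. COX6CL had signals of 77.9, 109 and 63.2 (mean difference -0.22), beside its partner cype at 7.18. COX6CL was over the level on replicate 2 alone. COX7AL2 had 89.0, 71.5 and 71.2 (mean difference -0.30) and COX7AL had 34.0, 4.83 and 15.7 (mean difference -2.79), beside their common partner COX7A at 7.19. COX5BL had 20.0, 30.8 and 40.9 (mean difference -1.69), beside COX5B at 5.74, and COX4L had 14.6, 79.2 and 16.1 (mean difference -1.84), beside COX4 at 6.86. Subunit VIa, encoded by levy, has a pair of measured paralogs. COX6AL had 7.43, 8.29 and 82.3 (mean difference -2.46) and COX6AL2 had 5.94, 8.73 and 4.30 (mean difference -3.97), beside levy at 6.39. The replicate 3 value of COX6AL lay just under the level of 90.7 on that array, and its other values were far below.

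The paralogs of complexes I to III were all under the level on average. For complex I, ND-B14.5AL had 87.0, 79.0 and 66.1 (mean difference -0.30), beside ND-B14.5A at 4.28. ND-20L had 74.7, 87.7 and 16.3 (mean difference -1.0), beside ND-20 at 4.44. Both genes named for ND-51, the NADH-binding subunit, were under the level: ND-51L2 had 43.6, 63.8 and 18.1 (mean difference -1.36) and ND-51L1 had 10.7, 4.0 and 49.5 (mean difference -2.89), beside ND-51 at 4.22. ND-24L, named for another subunit of the matrix arm, had log2 signals of 4.21, 3.86 and 3.26 (mean difference -2.79), and ND-24 was not analysed here.

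For complex II, SdhCL had 96.2, 81.2 and 28.6 (mean difference -0.64), beside the anchor gene SdhC at 5.07, and it was over the level on replicate 1 alone. SdhBL had 27.5, 20.5 and 10.8 (mean difference -2.38), beside the iron-sulphur gene SdhB at 3.65. SdhAL had 17.1, 75.5 and 6.79 (mean difference -2.20), and its partner was not analysed here. For complex III, UQCR-14L had 9.17, 10.9 and 2.89 (mean difference -3.84), beside UQCR-14 at 6.18. These low signals varied much between arrays: among the 22 members not above the level, 18 had an SD over 0.5 on the log2 scale. The share among all named genes not above the level was not counted, so this spread is not taken as a trait of the members.

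Neighbourhood on the chromosomes was read from the RefSeq gene table (Release 6 plus ISO1 MT), for which only names and gene order were used. Of the 21 pairs, 15 lay on different chromosome arms and 6 on the same arm. No pair was immediately adjacent. COX5BL and COX5B had 1 gene between them and COX7AL and COX7A had 2, while SdhCL and SdhC had 15, COX6CL and cype 78, ATPsynGL and ATPsynG 591, and COX6AL and levy 1525. In both closest pairs the paralog was not above the level and its partner was, at differences of 5.74 for COX5B and 7.19 for COX7A.

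Because many of these copies are known for transcription in the testis, markers of that organ were read on the same arrays. Of 20 measured testis genes 2 were above the reference level, bol (8.36 ± 0.43 log2 signal) and twe (7.46 ± 0.07), both regulators of meiosis in the male germ line. Of the genes that drive transcription in spermatocytes, can (3.42 ± 1.25), sa (2.98 ± 0.42), nht (3.21 ± 0.34), comr (3.33 ± 0.68), topi (2.61 ± 0.35) and aly (3.36 ± 1.61) were under it. Another of them, mia, was over it on every array (6.78 ± 0.21, mean difference 0.21) but was not called (adjusted p = 0.21). The summed signal of the 20 genes, 18 of them not above the level, was 1995, 1184 and 1353 on replicates 1, 2 and 3. The part of such markers in the ATPsynepsilonL value was not tested. Markers of flight muscle, a tissue rich in mitochondria, were above the level for 6 of 12 genes (50%), near the 46.6% of all named genes. Their summed signals were 13473, 10861 and 15785. The troponin gene TpnC4 (6.26 ± 0.12) and the paramyosin gene Prm (5.17 ± 0.63) were under the level, while the flight muscle actin gene Act88F (8.93 ± 0.50) was above it. The titin-like gene sls (13.32 ± 0.27) took most of the sum. Of 8 neuronal markers 5 were above the level, and of 8 blood cell markers 2. Fat body markers were above it for 3 of 6 genes (50%) and tracheal markers for 3 of 4. The tracheal markers above were Gasp, serp and verm, while btl was not (2.74 ± 1.12, mean difference -3.83). Each of these marker counts, that of the testis list included, stands beside 46.6% of all named genes. The part of muscle, nerve, blood, fat body and tracheal cells in the subunits' signals was not tested.

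The subunits above the level varied little between arrays. The median SD of the 55 genes was 0.11 on the log2 scale, against 0.16 for all 5583 genes above the level, and the highest was 0.41, while 148 of all genes above the level had an SD over 0.5. Signal strength moves with this spread: among named genes in the range of means between the quartiles of these subunits, the median SD was 0.12, against 0.11 for the subunits within it. The lowest and highest array differed by less than 0.5 on the log2 scale in 51 of the 55 subunits, and in 79.3% of all genes above the level. The exceptions were ATPsynbeta with a range of 0.76, ND-B12 with 0.69, UQCR-Q with 0.60 and sun with 0.51.

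**Figure D3:**
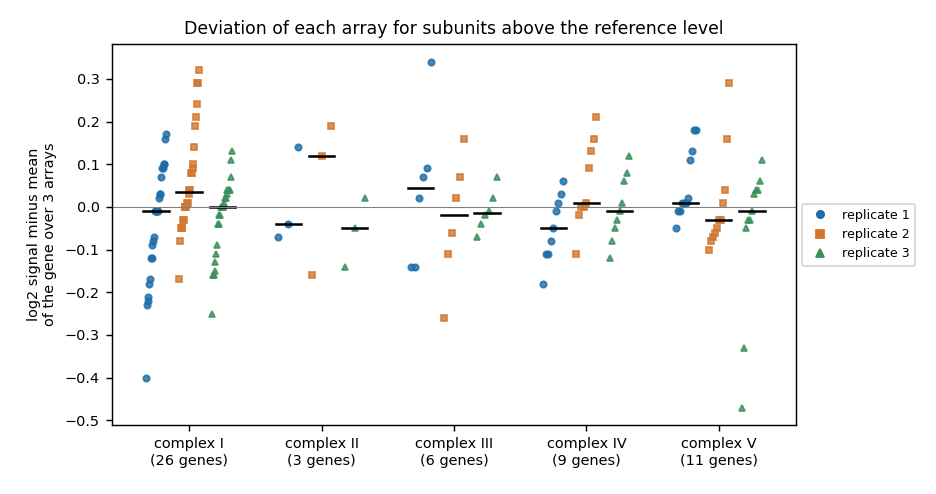
Log2 signal on each array minus the gene's mean over the 3 arrays (vertical axis) for the 55 subunits above the reference level, by complex and replicate, with a bar at each median. Most points lie within 0.3 of the gene's mean, and no replicate is shifted for the subunits as a whole (medians -0.01, 0.01 and -0.01).

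No array was shifted for the subunits as a whole: their median deviation from the gene's own mean was -0.01, 0.01 and -0.01 on replicates 1, 2 and 3. For the 26 complex I genes the medians were -0.01, 0.03 and 0.00, for the 3 complex II genes -0.04, 0.12 and -0.05, for the 6 complex III genes 0.05, -0.02 and -0.02, for the 9 complex IV genes -0.05, 0.01 and -0.01, and for the 11 complex V genes 0.01, -0.03 and -0.01. Among the genes above the level, the most and least variable of each complex were as follows. In complex I, ND-B12 had an SD of 0.36, and ND-B17 had signals of 3086, 3119 and 3123 and an SD of 0.01. In complex IV, COX5A had signals of 3757, 4908 and 4165 and an SD of 0.19, and COX4 had 11084, 11027 and 10982 and an SD of 0.01. In complex III the SD was 0.31 for UQCR-Q and 0.03 for RFeSP, in complex V 0.41 for ATPsynbeta and 0.03 for ATPsynE, and in complex II 0.17 for SdhD and 0.10 for SdhC. With 3 arrays of 1 group these spreads are descriptions of the batches.

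Several members had more than 1 probe set: 7 genes, with 87 probe sets for all 78 members. Tested one by one, 5889 of 13646 probe sets with a single symbol (43.2%) were above the reference level. All probe sets of ATPsynbeta, ATPsyngamma, ND-ACP and ND-B17 were above it. COX7B had probe sets at 13.49, 12.82 and 6.12 log2 signal, and the lowest was not above the level. COX7C had 12.90 and 4.76 and RFeSP 10.92 and 6.05, and the lower of each was not above it. For these genes the call rests on the brighter probe sets, which the rule selects. The SD of ATPsynbeta also differed by probe set: the brighter had 12.37, 12.47 and 11.71, and the other had 10.92, 10.86 and 10.77, with an SD of 0.07.

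**Figure D4:**
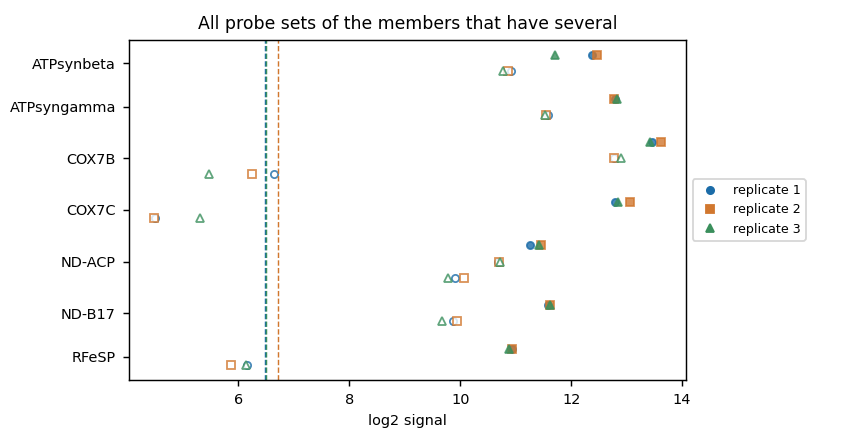
Log2 signal of every probe set of the 7 members with several, 1 point a replicate; filled points are the probe set that stood for the gene and open points the others, and the dashed lines are the reference levels of the 3 arrays. COX7B, COX7C and RFeSP each have 1 probe set near or under these lines.

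A further 11 members were represented only by probe sets marked s or x in their names, whose design may catch transcripts of more than 1 gene. Of these members 10 were above the level: ATPsynC, ATPsynD, ATPsynE, ATPsynF, ND-15, ND-19, ND-20, ND-B14.7, ND-MNLL and ND-PDSW. The other one was the paralog COX7AL2. Without such probe sets 67 members were measured and 46 were above the level.

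Genes that supply or use the chain were read from lists by the same test. Each count below stands beside the 46.6% of all named genes above the level. Of the carriers and channels that pass ATP, phosphate and ions between the matrix and the cytosol, 5 of 10 were above the level. That is near the share of all named genes. The adenine nucleotide translocator sesB (14.83 ± 0.04 log2 signal, mean difference 8.26), the phosphate carrier Mpcp2 (14.21 ± 0.10, 7.65) and the outer membrane channel porin (12.79 ± 0.11, 6.22) were the highest of those above. Ant2 (9.64 ± 0.15), the translocator gene next to sesB, and the uncoupling protein gene Bmcp (7.91 ± 0.28) were above too. Their relatives Mpcp1 (mean difference -3.07), Porin2 (-2.57), Ucp4A (-0.53), Ucp4B (-1.15) and Ucp4C (-1.83) were not.

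**Figure D5:**
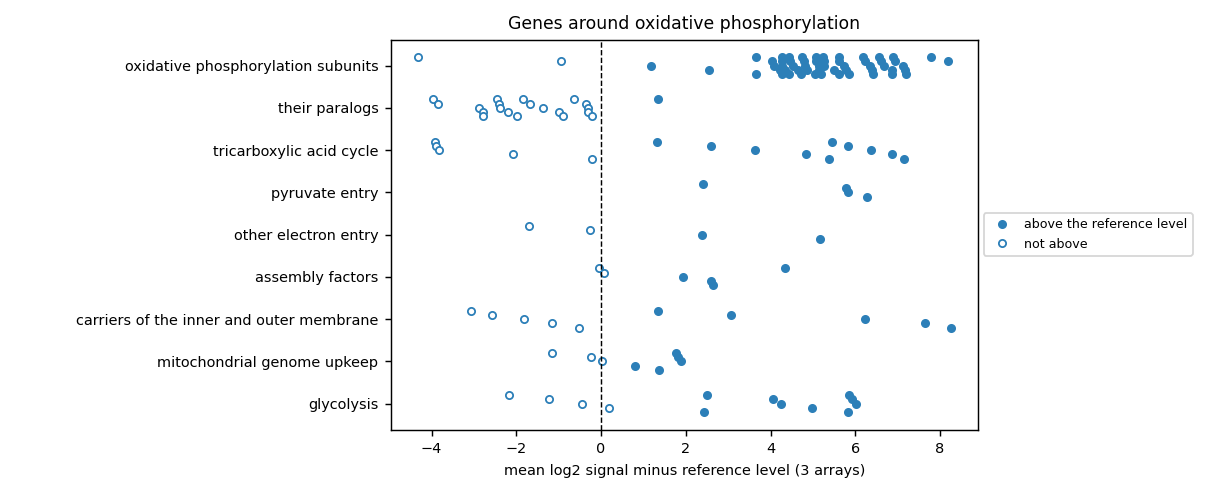
Mean log2 signal minus the reference level over 3 arrays for each measured gene of the members and of 7 pathway lists, 1 point a gene, filled where the gene was above the reference level and open where not; the dashed line is the level. Of the subunits 55 of 57 points are filled, of the paralogs 1 of 21, and of the lists between 2 of 4 and 4 of 4. Across all named genes 46.6% were above the level.

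Of the tricarboxylic acid cycle list, 10 of 15 measured genes were above the level. The highest were the NADP-dependent isocitrate dehydrogenase gene Idh (13.73 ± 0.12, mean difference 7.16), Ogdh of the oxoglutarate dehydrogenase complex (13.42 ± 0.04, 6.86) and Scsalpha1 of succinyl-CoA ligase (12.94 ± 0.06, 6.38). Not above were mAcon2 (-3.89), Scsalpha2 (-0.21), Fum2 (-2.08), Fum3 (-3.92) and Fum4 (-3.83), each a further copy of an enzyme of the cycle. The copy numbered 1 was above the level for aconitase, mAcon1 (4.83), and for succinyl-CoA ligase, Scsalpha1. Fum1 was not analysed here.

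All 4 measured genes of pyruvate entry were above the level: muc of the pyruvate dehydrogenase complex (12.85 ± 0.08, mean difference 6.28), its kinase Pdk (12.40 ± 0.36, 5.84), the pyruvate carrier Mpc1 (12.35 ± 0.21, 5.79) and the phosphatase Pdp (8.97 ± 0.08, 2.40). Of the enzymes that feed electrons to ubiquinone by other routes, 2 of 4 were above, near the 46.6% of all named genes. They were wal, an electron transfer flavoprotein subunit (5.16), and the dihydroorotate dehydrogenase gene Dhod (2.39). The glycerophosphate oxidase copies Gpo2 (-0.26) and Gpo3 (-1.71) were not.

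Of the assembly factors, 4 of 6 were above the level, namely Coa8 (10.91 ± 0.08, mean difference 4.34), CIA30 for complex I (2.65) and the complex IV factors Scox (2.60) and Surf1 (1.94). Sdhaf3, for complex II (0.08, adjusted p = 0.626), and Bcs1, for complex III (-0.05), lay at the level and were not called. Of the list for mitochondrial genome upkeep and expression, which also holds transcription factors of nuclear genes, 5 of 8 genes were above the level. Those factors were ewg (1.88) and Ets97D (1.78). The others above were the DNA-packaging factor TFAM (1.81), the single-strand binding protein mtSSB (1.36) and the mitochondrial transcription factor mtTFB2 (0.80, adjusted p = 0.0158). mtTFB2 was no longer called when replicate 1 was left out (0.78, adjusted p = 0.0739) or replicate 3 (0.67, adjusted p = 0.0822). The polymerase genes PolrMT (0.01) and PolG1 (-1.15) and the helicase gene mtDNA-helicase (-0.23) were not above the level.

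Glycolysis had 9 of 13 measured genes above the level. Pgi (12.59 ± 0.14, mean difference 6.02), Tpi (12.49 ± 0.04, 5.92) and Ald1 (12.42 ± 0.05, 5.86) were the highest, which encode glucose phosphate isomerase, triose phosphate isomerase and aldolase. The hexokinase genes Hex-C (-2.17), Hex-t1 (0.19) and Hex-t2 (-0.45) and the phosphoglycerate mutase copy Pglym87 (-1.23) were not above it, while Hex-A (2.44) and Pglym78 (4.06) were.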

How the data were processed

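Total RNA of 3 biological replicates was measured on 1 array each. Intensity was deposited on a linear scale for each of 18952 probe sets. MAS5 and RMA were used, per the submitters' processing notes, with no role or version given. Trimmed by 2% at each end, every array averaged 500.0, so the deposited signals were taken to log2 as they stood. Apart from the Release 6 of the RefSeq gene table, no genome build is given in the sources used here. A single symbol was given for 13646 probe sets in the platform annotation, several for 402 and none, controls included, for 4904. The number of arrays limits the precision, and the median signal was 67.6, 73.3 and 59.7.

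The reference genes were 56 odorant receptor genes and 31 eggshell and accessory gland genes. Acp65Aa, a cuticle protein gene, and Cp190, a chromatin protein gene, were left out of them after values were seen, because their symbols only begin like reference genes. The one-sided moderated test of limma 3.58.1 (R 4.3.3) was checked on simulated data; the prior SD was 0.337 at 1.59 degrees of freedom. Members, lists and tests were chosen with earlier results of these data known. Named are all paralogs and partners, in each complex and list the 3 called genes with the highest means and all not called, members whose probe sets differ in call or whose call changes without a replicate, and the most and least variable called member of each complex. ND-75, ox, COX8, marker genes and further called genes of the lists were named for their role or to complete a short list. Members with several probe sets, or only with probe sets marked s or x, were named for that. Tables were handled with Python 3.11.15 and pandas 2.3.3. Alternatives covered the reference level and genes, the probe set per gene, the model, the scaling, a pseudocount of 16, dim genes and each replicate.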

Additional observations from a re-analysis of the deposited data

How the results depend on the processing

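The count of 56 members above the reference level was also found, with the same genes, under all alternatives but 2. It was 55 with the 99th percentile as the level, and 46 of 67 without s and x probe sets. Leaving out dim genes removed beforehand the 22 members not above the level and kept 56. That alternative was thus no check on the count. The share of all named genes above the reference level ranged from 40% to 49.7%. It was 99% of the 5991 genes kept when dim genes were left out. No paired analysis was possible because there was a single group. Without s and x probe sets, fewer genes were measured. The counts above the level were then 7 of 7 for complex V, 1 of 3 for other electron entry and 5 of 9 for glycolysis. For the adenine nucleotide, phosphate and uncoupling carriers the count was 1 of 6. mtTFB2 was also not called when the reference was made of eggshell and accessory gland genes alone (0.63), or with the 99th percentile (0.29).

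Some genes near the level changed the sign of their difference without being called in any setting. With the median of the reference genes plus 1 as the level, the differences were ATPsynGL 0.39, Bcs1 0.71, COX6CL 0.54, COX7AL2 0.45, Gpo2 0.50, Hex-t2 0.31, ND-B14.5AL 0.46, Scsalpha2 0.55, SdhCL 0.11, Ucp4A 0.23 and mtDNA-helicase 0.53. With non-fly control probe sets as reference they were ATPsynGL 0.14, Bcs1 0.45, COX6CL 0.28, COX7AL2 0.20, Gpo2 0.24, Hex-t2 0.06, ND-B14.5AL 0.20, Scsalpha2 0.29 and mtDNA-helicase 0.27. With the 99th percentile they were Hex-t1 -0.32, PolrMT -0.49 and Sdhaf3 -0.43. With eggshell and accessory gland genes alone they were PolrMT -0.16 and Sdhaf3 -0.09, and with odorant receptors alone Bcs1 was at 0.08. With Acp65Aa and Cp190 kept among the reference genes, an alternative chosen after seeing the data, PolrMT was at -0.13 and Sdhaf3 at -0.06. Leaving out each replicate in turn gave -0.15 to 0.03 for Bcs1, -0.20 to 0.22 for PolrMT, -0.49 to 0.10 for Scsalpha2 and -0.03 to 0.16 for Sdhaf3. Another reference moves the level for every gene alike; beyond that, the cause was not tested. The prior of the fit and 3 arrays limit what can be called for genes near the level.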

Other observations

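Probe sets with several gene symbols were used for no member, but 4 of them carried a symbol that the rule matches, and their signals cannot be assigned to either gene. The probe set shared by CG18809 and COX6B, a subunit gene of complex IV, had a log2 signal of 13.64 ± 0.08 (SD, n = 3). The probe set shared by ATPsynG, a membrane subunit gene of complex V, and beat-Vb had 13.27 ± 0.11. The probe set shared by CG40472 and ND-AGGG, an accessory subunit gene of complex I, had 11.94 ± 0.44. The probe set shared by the levy paralog COX6AL2 and the receptor gene Ir75d had 6.31 ± 0.57, while the probe set of COX6AL2 alone had 2.60 ± 0.51.

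Under quantile normalization of the arrays, the median deviation of the 55 subunits above the reference level was 0.00, 0.03 and -0.02 on replicates 1, 2 and 3, against -0.01, 0.01 and -0.01 as deposited. With this scaling 30.9%, 52.7% and 16.4% of the subunits were highest on replicates 1, 2 and 3, against 35.7%, 35.7% and 28.6% of all genes above the level. As deposited, the shares were 32.7%, 40% and 27.3% of the subunits, against 37.5%, 37.6% and 24.9%. The count by array thus depended on the scaling.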
